A study of Mus musculus with 6 samples.

Results

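The genes described here build the acrosome, the cap-shaped secretory vesicle over the sperm nucleus, or act in the contact and fusion of sperm and egg. They were taken by name from a list of 36 such genes, and 35 of them are among the 25771 genes measured. Spaca4 was not found by name, so its level was not analysed and only its promoter was searched. The mice were adult C57BL6 animals with the genotype NONO or NONO deltaER. Their testes were digested with enzymes, and the cells were sequenced with the 10x Genomics 3′ v2 chemistry, which counts each captured transcript once by a unique molecular identifier (UMI). There were 3 libraries per genotype, TA, TB and TC for NONO and TD, TE and TF for NONO deltaER, with 6261 to 8909 cells and 81042216 to 110018960 UMI each. The labels do not state whether libraries are separate animals, and p-values therefore measure only the spread between libraries, which may be technical. The deposited cell table names the groups WT and KI; WT is taken here to mean NONO, and KI to mean NONO deltaER, and all directions below would turn if that reading were wrong. The nature of the deltaER alteration is not given in the sources at hand. No other allele or agent is named for either group.

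The acrosome forms in round spermatids, the haploid cells that follow meiosis, when vesicles from the Golgi apparatus fuse and spread over the nucleus through the numbered steps of spermatid development. Its content holds proteases, hyaluronidases and zona-binding proteins that are released or exposed near the egg, and its membranes carry proteins needed for fusion with the egg. A plate of cytoskeletal proteins between vesicle and nucleus, with actin-like proteins in it, holds the vesicle in place. The listed genes fall into 5 roles: 12 of acrosomal content and zona binding, 4 lysozyme-like, 8 of the membrane and of sperm-egg fusion (7 measured), 8 of acrosome formation and its membrane, and 4 actin-like.

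Promoter stretches of 4 genes are shown first because they belong to genes on which the results below turn. They are the neighbouring hyaluronidase genes Spam1 and Hyal5, the acrosome formation gene Fam209, and Izumo1. Izumo1 encodes the sperm surface protein that the egg receptor binds. Each stretch runs from -150 to -36 counted from the RefSeq start of transcription, with -1 the base before the start. It reads 5′ to 3′ on the plus strand of GRCm38.p6. Capitals mark TGATGTCA, read on either strand, in Spam1, Hyal5 and Fam209, and TGACGTCA, the full cAMP response element (CRE), in Izumo1. The stretches lie at chr6:24791038-24791152, chr6:24857847-24857961, chr2:172472404-172472518 and chr7:45621661-45621775.
Spam1: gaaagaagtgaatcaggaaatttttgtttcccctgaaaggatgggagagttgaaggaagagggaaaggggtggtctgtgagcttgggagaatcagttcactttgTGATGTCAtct
Hyal5: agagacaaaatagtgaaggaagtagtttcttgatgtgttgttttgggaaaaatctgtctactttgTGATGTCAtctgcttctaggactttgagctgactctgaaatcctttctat
Fam209: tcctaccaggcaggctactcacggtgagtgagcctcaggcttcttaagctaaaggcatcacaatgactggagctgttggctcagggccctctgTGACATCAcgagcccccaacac
Izumo1: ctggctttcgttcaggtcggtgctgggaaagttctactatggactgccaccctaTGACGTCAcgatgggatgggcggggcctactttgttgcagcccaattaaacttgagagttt
The longest run of letters that the 300-base promoters of Spam1 and Hyal5 share is actttgtgatgtcatctg, 18 bases from -52 in Spam1 and from -91 in Hyal5. Of 32851 RefSeq promoters of the same length, 2 hold it on either strand, those of Spam1 and Hyal5.

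RefSeq promoters, 250 bases before to 50 after the start, were matched for 31 of the 36 listed genes (38 promoters), the unmeasured Spaca4 among them. The CRE core TGACGT, searched on both strands, stood in 3 of them (Acrbp, Izumo1 and Lyzl4), which is 7.89% of these promoters beside 7.51% of all 32851. TGACGTCA contains that core and stood in Izumo1 alone among the listed genes (2.63% beside 1.79%). TATAAA stood in 7.89% beside 13.6%, GTTGCC in 15.8% beside 12.5%, and CCAAT in 28.9% beside 37.4%. TGATGTCA, which contains none of the other letter runs searched, was added after it had been seen in Spam1, Hyal5 and Fam209. It stood in 21.1% of the 38 promoters and 3.62% of all, in 8 genes: those 3, Actl7a, Actl7b, Actl9, Lyzl6 and Spaca7. Leaving out the 3 genes in which it was first seen, 5 of 28 genes held it (17.9%). Among all measured genes with a promoter and at least 20 CPM in a cell class, 3.52% held it, and among those highest in round spermatids of steps 4-5 and 5-6 it was 8.55% and 8.68%. These matches describe letters in a window and say nothing of which factor binds there.

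The 17 cell classes are those of the deposited annotation. Levels are given as CPM, how many of 1000000 UMI of a library and class belong to the gene, as mean ± SD over all 6 libraries unless a genotype is named. The classes were made from the expression of the same cells, so levels between classes are described with no test. All 2251 cells of the class named Round ST(Step 1-2) carry the broad label of spermatocytes, against the fine name, and the class is called by its fine label. In all, 650 of 45836 different barcodes occur in more than 1 library. Mitochondrial percent parts the libraries across the genotypes, with TA, TB and TF higher than TC, TD and TE.

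The 35 measured genes were highest mostly in the middle of round spermatid development. In steps 4-5 13 of them had their highest level and in steps 5-6 a further 8, shares of 37.1% and 22.9%, beside 6.45% and 5.83% of the 13418 genes with at least 20 CPM in a class. Steps 1-2 held 4 (Zpbp2, Izumo4, Dpy19l2 and Agfg1), step 3 held 3 (Acrbp, Spink2 and Pick1) and steps 6-7 held 2 (Izumo3 and Sppl2c). Leptotene to early pachytene spermatocytes had Gopc highest, late pachytene to early diplotene spermatocytes Spata16, steps 7-8 Actl9 and elongated spermatids Crisp2. These peaks are of the mean over 6 libraries, and some are near ties. Spaca6, counted in steps 5-6, had its peak there in 0 single libraries (45.9 CPM, beside 45.8 CPM in Leydig cells). Izumo3 and Spink2 had the stated peak in 3 libraries, and Izumo2 and Agfg1 in 4. Actl7b was counted 84 times in all cells and stayed under 1 CPM in every class, so no peak is read for it.

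**Figure D1:**
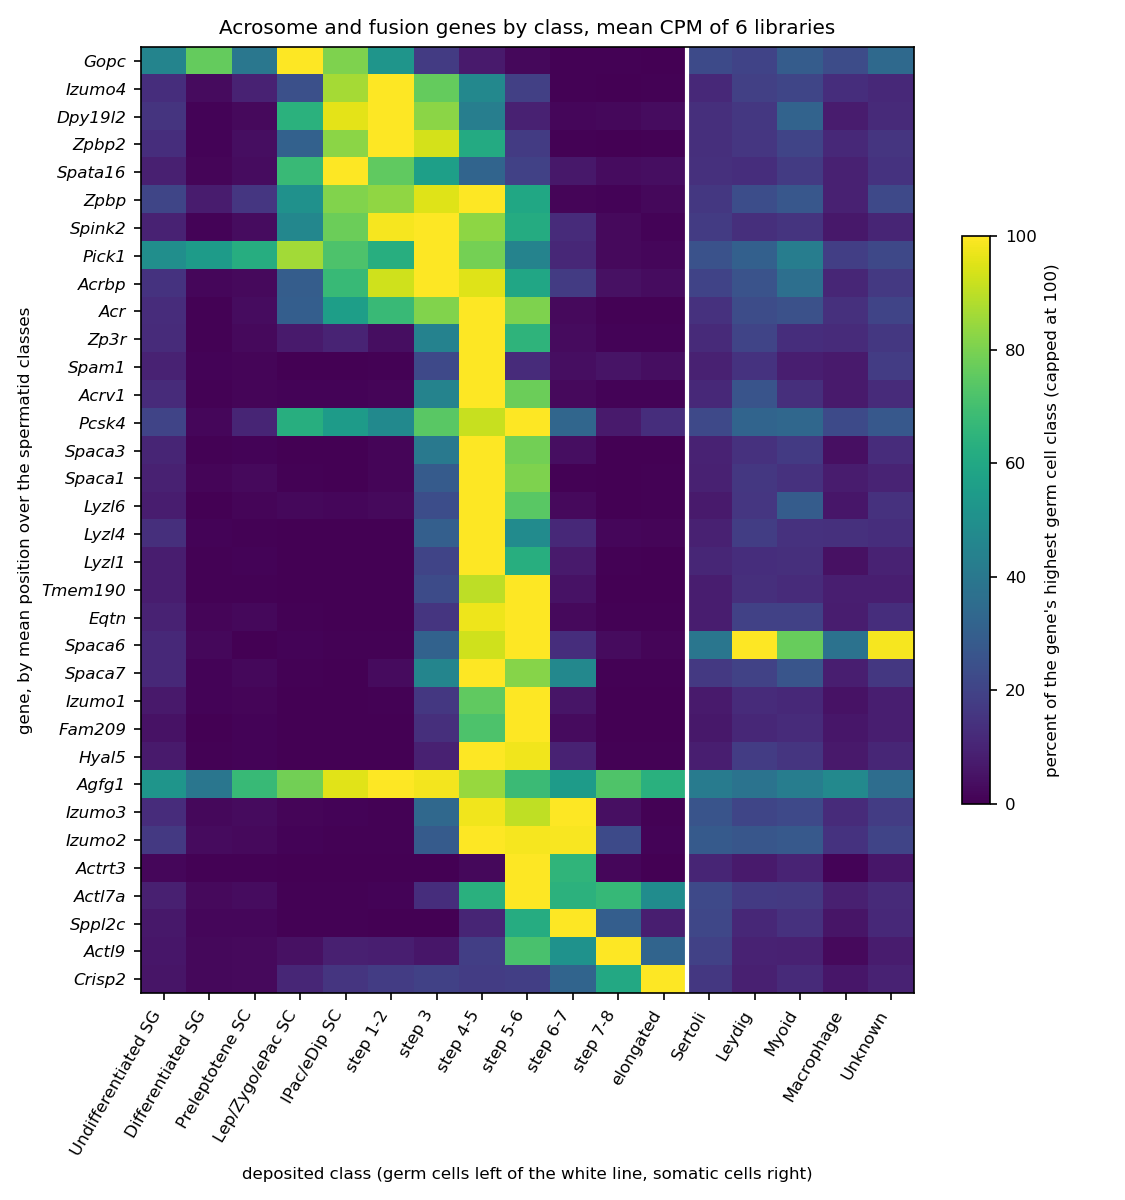
Mean level of 34 genes (y axis, all but Actl7b, ordered by mean position over the spermatid classes) in each of 17 deposited classes (x axis), as a percent of the gene's highest germ cell class in CPM, mean of 6 libraries, capped at 100. The bright band moves from spermatocytes for Gopc to elongated spermatids for Crisp2, with most genes brightest in steps 4-5 and 5-6; Spaca6 is also bright in Leydig cells and in the class named Unknown.

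By the time of onset the genes formed an early and a late set. Counting a gene as on from 20% of its highest germ cell level, 12 of the 34 were already on in spermatocytes before the class named steps 1-2 and 22 were not. Of the 22, 13 came on in step 3 and 5 in steps 4-5 (Fam209, Izumo1, Hyal5, Eqtn and Actl7a). In steps 5-6 came 3 (Actrt3, Sppl2c and Actl9) and in steps 6-7 Crisp2. Crisp2 is late only by this relative cut, standing at 15.6% of its highest level in spermatocytes and 19.4% in step 3. In late pachytene to early diplotene spermatocytes it was at 87.2% of its step 4-5 level of 1915 CPM. The early set held the protease gene Acr, its binding partner Acrbp, the zona pellucida binding protein genes Zpbp and Zpbp2, the protease inhibitor gene Spink2 and the convertase gene Pcsk4. It also held 5 of the 8 genes of acrosome formation, Spata16, Dpy19l2, Gopc, Pick1 and Agfg1, whose products work at the Golgi apparatus, its vesicles or the nuclear envelope, and Izumo4. None of the 4 lysozyme-like genes was in it. TGATGTCA stood in the promoters of 0 of the 9 early genes that had one. It stood in 7 of the 20 late genes, but the 3 genes in which it was first seen are all late, and without them it was 4 of 17; with so few genes no contrast between the sets is read from it.

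Most genes were low again by the late round spermatids. In steps 6-7 24 of the 34 genes were below 20% of their highest level and in steps 7-8 28 were. The genes at or above 20% in elongated spermatids were Agfg1, Actl7a, Actl9 and Crisp2.

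Among the genes of acrosomal content, Spam1 and Hyal5 encode hyaluronidases that help sperm through the matrix around the egg and lie side by side at chr6:24791188-24801048 and chr6:24857997-24891958 (both plus strand, GENCODE M21 on mm10). Spam1 read 344, 344, 356, 335, 354 and 361 CPM in TA to TF in steps 4-5, and 48.3, 35.1, 46.6, 43.8, 39.1 and 43.1 CPM in steps 5-6. Hyal5 read 444, 433, 489, 455, 495 and 443 CPM in steps 4-5, and 442, 427, 468, 423, 486 and 453 CPM in steps 5-6. In every library the Spam1 level was thus far lower in the later class, while the Hyal5 level was about the same. Hyal5 then stood at 44.7 CPM in steps 6-7, a class later than its neighbour. In step 3 the order was the other way round, with Spam1 at 22.2% and Hyal5 at 9.16% of its own highest level.

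The other content genes spread over the whole course. Zpbp2 was highest in the class named steps 1-2 (770 ± 67.3 CPM) and Acrbp in step 3 (807 ± 111 CPM). Acr, which encodes the protease acrosin, read 418, 387, 583, 547, 575 and 380 CPM in TA to TF in steps 4-5. TC, TD and TE were the high libraries for it, the same 3 that had the lower mitochondrial percent; whether the parting plays a part in the Acr level was not tested. Acrv1, Zp3r, Spam1 and Spaca7, genes of the acrosomal matrix and of its surface, were highest in steps 4-5 in all 6 libraries. Spaca7 kept 46.5% of its highest level in steps 6-7, where Acrv1 and Zp3r were at 2.44% and 2.98%. Crisp2, a cysteine-rich secretory protein of the acrosome and sperm tail, was highest in elongated spermatids, at 10750, 10520 and 10230 CPM in NONO and 10060, 10530 and 12050 CPM in NONO deltaER, with the genotypes overlapping.

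The 4 lysozyme-like genes, whose products resemble the enzyme that cuts bacterial cell walls and lie in the acrosome, shared 1 narrow window. Spaca3, Lyzl1, Lyzl4 and Lyzl6 were at 2.15% of their highest level or less in spermatocytes, came on in step 3 at 20.5% to 40.3% and were highest in steps 4-5 in all 6 libraries. By steps 6-7 they stood at 2.40% to 11.5%.

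The genes of the membrane and of fusion did not share a window. Izumo4 was highest in the class named steps 1-2 at 185 ± 19.3 CPM and was at 0.504% of that in steps 6-7. Izumo1 read 250, 251, 252, 243, 252 and 245 CPM in steps 4-5 and 339, 338, 336, 309, 333 and 318 CPM in steps 5-6, so every library was higher in the later class. Izumo3 ran on longer, at 393 ± 16.1, 365 ± 13.5 and 403 ± 34.2 CPM in steps 4-5, 5-6 and 6-7, and then stood at 16.5 CPM in steps 7-8. Izumo2 stood at 121, 119 and 120 CPM through these 3 classes and was the one member of its family still at 22.5% of its highest level in steps 7-8. Eqtn, for an acrosomal membrane protein, and Tmem190 were highest in steps 5-6. Spaca6, needed for fusion, had a low level that reached 45.9 ± 3.49 CPM in steps 5-6, and 45.8 ± 15.8 CPM in Leydig cells on 97 UMI in all.

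**Figure D2:**
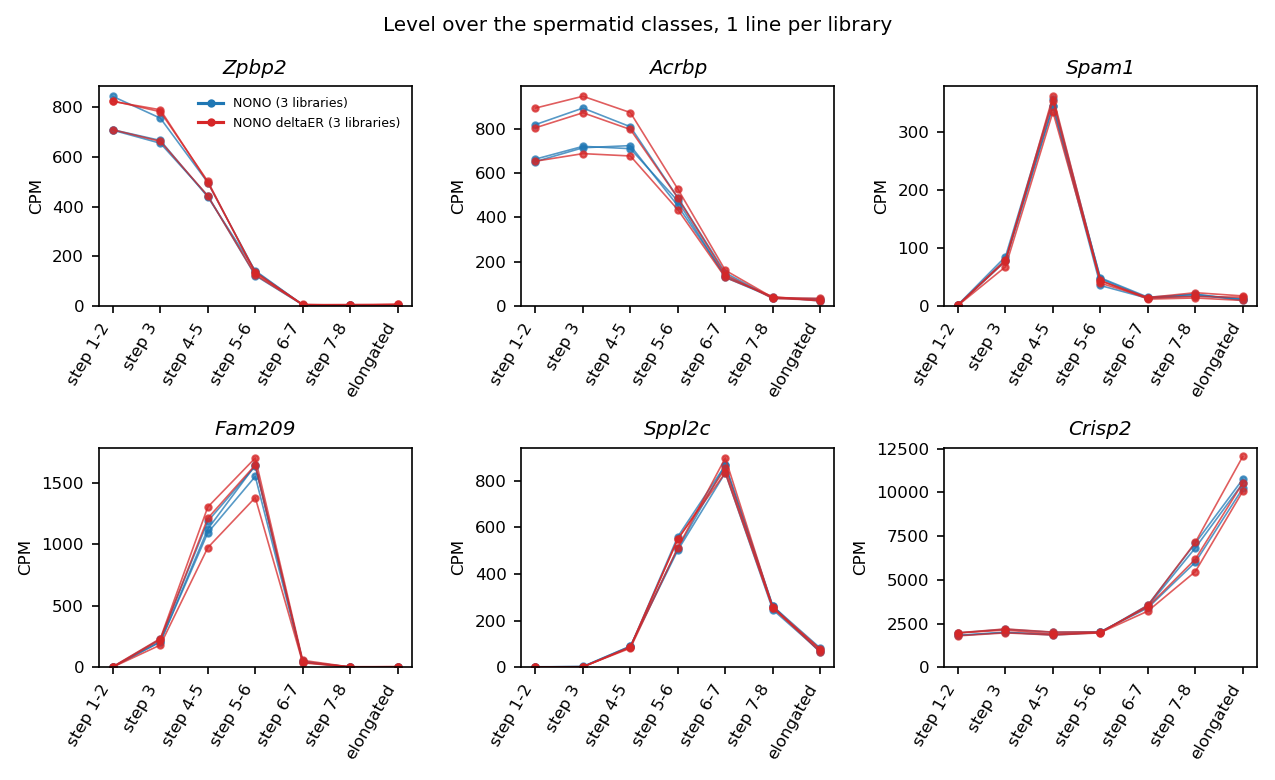
CPM (y axis, linear, each panel with its own scale from 0) of Zpbp2, Acrbp, Spam1, Fam209, Sppl2c and Crisp2 over the 7 spermatid classes (x axis), 1 line per library, NONO blue and NONO deltaER red, 3 libraries each. The lines of the genotypes lie together in each panel, and the highest class differs between genes, from steps 1-2 for Zpbp2 to elongated spermatids for Crisp2.

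Genes of acrosome formation and its membrane ran from Gopc, the earliest of the order, to Sppl2c near its late end. Gopc, for a Golgi protein without which no acrosome forms, read 144, 134, 153, 142, 146 and 144 CPM in leptotene to early pachytene spermatocytes and was at 10.2 ± 1.44 CPM in steps 4-5. Fam209, for a membrane protein that partners with DPY19L2, lies at chr2:172472520-172474331 (plus strand). It stood at 214 ± 19.5 CPM in step 3, 1148 ± 113 CPM in steps 4-5, 1591 ± 115 CPM in steps 5-6 and 45.1 ± 7.19 CPM in steps 6-7. Dpy19l2 itself, for an inner nuclear membrane protein that anchors the acrosome, was highest in the class named steps 1-2 at 480 ± 17.96 CPM and at 43.1 CPM in steps 5-6, where Fam209 was highest. Spaca1, for an acrosomal membrane protein, read 1021, 999, 1015, 929, 1024 and 983 CPM in steps 4-5. Sppl2c, for an intramembrane protease, was highest in steps 6-7 at 858 ± 24.0 CPM.

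The actin-like genes were the latest group. Actrt3 stood at 0.481 CPM in step 3, 11.3 ± 1.30 CPM in steps 4-5 and 493 ± 28.2 CPM in steps 5-6. Actl7a was highest in steps 5-6 (420 ± 38.2 CPM) and kept 48.7% of that in elongated spermatids, and Actl9 was highest in steps 7-8 (328 ± 58.1 CPM).

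To ask whether any gene was read earlier or later in NONO deltaER, each gene was given a mean position over the 7 spermatid classes (1 for steps 1-2, 7 for elongated), weighted by its CPM, in each library. In NONO the order ran from Gopc at 1.57, Dpy19l2 and Izumo4 at 1.94 and Zpbp2 at 2.01 to Actl9 at 5.07 and Crisp2 at 5.29. The position moved by -0.12 ± 0.11 (SE) for Actl9 and 0.07 ± 0.04 for Spaca6, the lowest and the highest of the 34, with a median of -0.000938. Fam209 read 3.49, 3.51 and 3.49 in TA to TC and 3.48, 3.49 and 3.49 in TD to TF, and the genotypes overlapped. In limma's test 0 of the 34 genes passed an adjusted p of 0.05 (0% of all 8234 genes tested did), 0 of them had an unadjusted p under 0.05, and their lowest adjusted p was 0.999; over all genes 306 had an unadjusted p under 0.05. This count of 0 was also reached in every alternative tried. The classes were made from the expression of the same cells. A shift shared by many spermatid genes could therefore move cells between classes and leave the positions as they were. The test could not see such a shift, and the count is not read as unchanged timing.

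**Figure D3:**
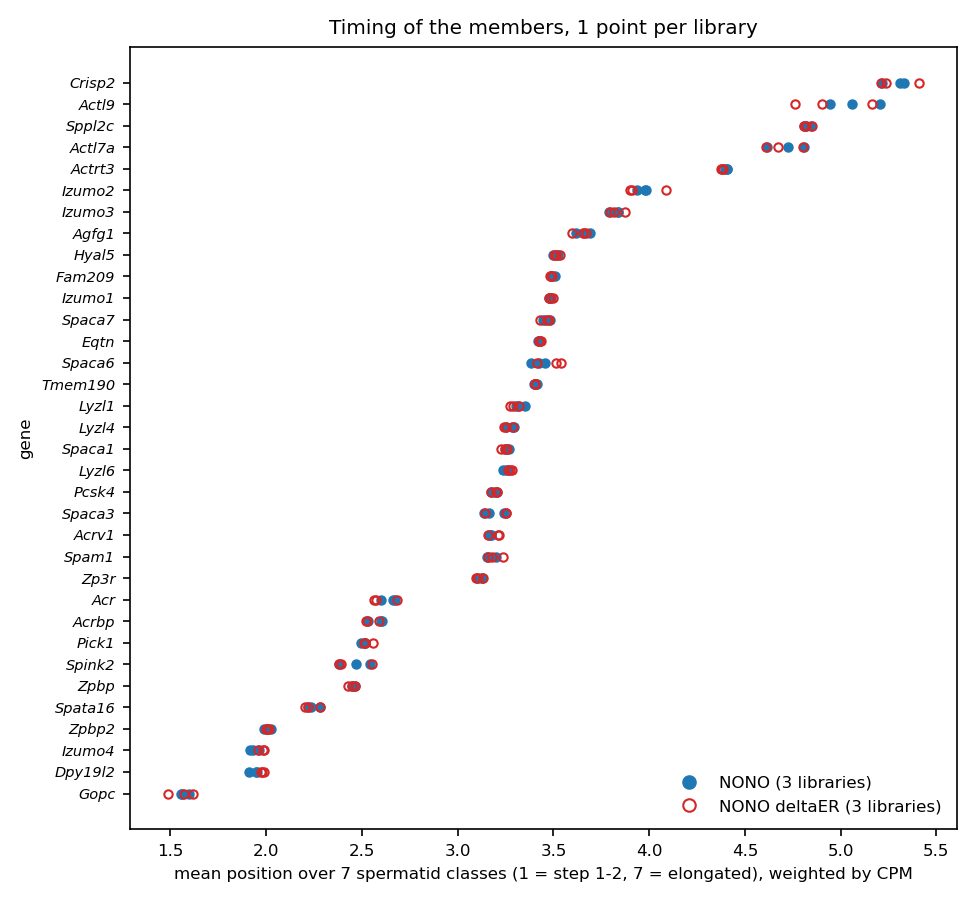
Mean position over the 7 spermatid classes (x axis, 1 for steps 1-2 to 7 for elongated, weighted by CPM) of 34 genes (y axis, ordered by the NONO mean), 1 point per library, NONO filled blue and NONO deltaER open red. The points of the genotypes lie among each other for most genes, from Gopc near 1.57 to Crisp2 near 5.29.

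The genotypes were then compared within each class, and over all cells, by edgeR's quasi-likelihood test on summed UMI with Benjamini-Hochberg adjustment; a log2 fold change below 0 means a lower level in NONO deltaER, and is given with their standard error. Whether libraries overlap is stated for named genes, most of them picked by their p. The share of all genes without overlap was not counted. In the classes where the listed genes were highest, their levels differed little. In steps 4-5, 34 genes were tested, the median log2 fold change was -0.00494 beside 0.00119 over all 15647 genes, and single genes ran from -0.26 (Gopc) to 0.19 (Spink2). In steps 5-6 the median was -0.00474 and the range -0.32 to 0.21, and in steps 6-7 -0.03 and -0.59 to 0.26. Without TF these 2 medians were 0.03 and 0.01. In step 3 26 of 33 tested genes lay below 0, with a median of -0.05. No gene passed the threshold in any of these 4 classes (0% of all genes did in each), and the count at an unadjusted p under 0.05 was 1 in step 3 (Sppl2c, at 2.95 ± 0.754 against 2.04 ± 0.435 CPM) and 0 in the other 3; DESeq2 called 0 as well.

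The 3 genes with the lowest p in each of these classes had log2 fold changes from -0.59 (Izumo4 in steps 6-7) to 0.26 (Zpbp2 in steps 6-7), and Sppl2c in step 3 had -0.54. In step 3 Izumo1 read 56.8, 56.7 and 56.9 CPM in NONO and 46.2, 51.1 and 54.1 CPM in NONO deltaER, with no overlap (-0.17 ± 0.08, adjusted p = 1.00), and Lyzl6 42.1 ± 1.79 against 37.4 ± 1.34 CPM. In steps 4-5 Gopc read 12.9, 10.7 and 9.68 against 9.39, 9.43 and 9.08 CPM (-0.26 ± 0.13, adjusted p = 1.00), and Actrt3 and Spaca6 overlapped between the genotypes. In steps 5-6 Zpbp read 496, 477 and 515 against 379, 476 and 452 CPM (-0.17 ± 0.09, adjusted p = 1.00), all NONO libraries above all NONO deltaER ones by as little as 477 against 476. Acrv1 in steps 5-6 (199.8 ± 12.03 against 228 ± 26.2 CPM) and Actl9 (221 ± 27.0 against 247 ± 13.9 CPM) lay the other way and overlapped. In steps 6-7 Izumo4, Zpbp and Zpbp2 were at 0.932, 12.01 and 4.46 CPM, after their own peaks, with log2 fold changes of -0.59, -0.20 and 0.26.

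In the remaining germ cell classes from pachytene on, calls were also 0. Late pachytene to early diplotene spermatocytes had 24 tested genes, 17 below 0 and 2 lower at an unadjusted p under 0.05, which 397 of all 11623 genes reached (0% of all genes called). Spaca1 read 3.05, 4.09 and 3.71 CPM in NONO and 0.764, 2.00 and 2.00 CPM in NONO deltaER there (-1.17 ± 0.34, adjusted p = 0.999). Eqtn read 1.35, 2.42 and 1.33 against 0.255, 0.154 and 1.11 CPM (-1.57 ± 0.58, adjusted p = 0.999), and Acrv1 2.76 ± 0.352 against 1.66 ± 0.585 CPM (-0.69, adjusted p = 0.999). In all 3, picked for the lowest p in the class, the genotypes did not overlap, at levels of a few CPM. In elongated spermatids Dpy19l2 read 10.6, 15.2 and 6.495 CPM in NONO and 18.1, 21.2 and 20.5 CPM in NONO deltaER (0.95 ± 0.30, adjusted p = 0.626; chosen after its values were seen), where 0% of all genes were called.

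**Figure D4:**
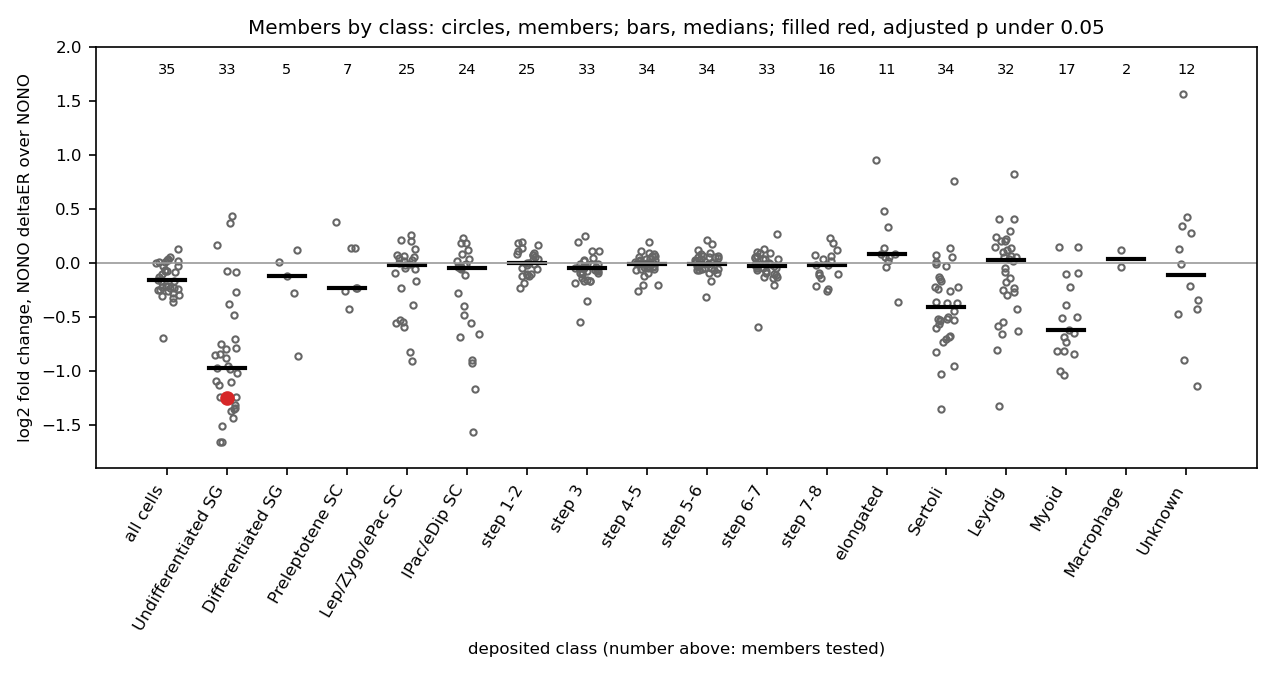
Log2 fold change of NONO deltaER over NONO (y axis) for each tested gene of the list (circle) over all cells and in each of 17 deposited classes (x axis), with the median (bar) and the number tested above; red marks an edgeR adjusted p under 0.05. The circles lie close to 0 in the round spermatid classes, and the median is -0.97 in undifferentiated spermatogonia, where Fam209 is the one red point.

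Over all cells, 26 of the 35 genes had lower levels in NONO deltaER, with a median log2 fold change of -0.16 beside 0.00237 over all 20958 genes tested. Eqtn read 177, 194 and 166 CPM in NONO and 132, 155 and 147 CPM in NONO deltaER (-0.32 ± 0.09, adjusted p = 0.823). Tmem190 read 141, 156 and 133 against 120, 125 and 119 CPM (-0.25 ± 0.07, adjusted p = 0.823), and Fam209 531, 612 and 537 against 468, 504 and 442 CPM (-0.26 ± 0.08, adjusted p = 0.823). In all 3, picked for the lowest p, every NONO library lay above every NONO deltaER library. By edgeR 0 genes of the list were called (0% of all genes were), 9 were lower and 0 higher at an unadjusted p under 0.05 (1257 of all 20958 genes reached it), and DESeq2 called 0. The 9 were 3 of the 4 lysozyme-like genes, 3 of the 7 membrane and fusion genes, 2 of the 8 formation genes and Spaca7 of the content genes. In a sum over all cells, fewer cells of a type and less RNA per cell cannot be told apart. Steps 4-5 were 17.8% ± 2.70 of the cells of NONO against 13.6% ± 2.72 for NONO deltaER, and steps 5-6 10.3% ± 0.613 and 7.79% ± 0.669 (SD, n = 3 each). Class make-up is taken next as each class's share of a library's UMI, which joins cell number and RNA per cell. Steps 4-5 held 26.0% ± 2.69 of the UMI in NONO against 21.9% ± 4.38 in NONO deltaER. With each library's own class levels but the mean class make-up of the 6 libraries, the median log2 ratio of the genotypes' mean CPM was -0.01. With each library's own make-up but the mean class levels, it was -0.10, and as observed -0.14. For Fam209 the 3 values were 0.000986, -0.24 and -0.25, for Eqtn -0.06, -0.24 and -0.31, and for Tmem190 -0.00131, -0.22 and -0.24. With the same number of cells per class in every library, the log2 fold changes over all cells were -0.09 for Eqtn, -0.04 for Tmem190 and -0.04 for Fam209. Without TD the median log2 fold change over all cells was -0.08.

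Undifferentiated spermatogonia, the class with stem and progenitor cells, were the one class with a call. These cells precede meiosis, and genes of the list stood there at a median of 13.04% of their own level in steps 4-5. Fam209 read 87.6, 124 and 107 CPM in NONO and 47.0, 39.6 and 51.5 CPM in NONO deltaER, so each NONO library was above each NONO deltaER library. Its log2 fold change was -1.25 ± 0.19 with an edgeR adjusted p of 0.0470, 1 of 3 genes called in the class (0.0271% of 11064; lower calls 0.0181%, higher calls 0.00904%). Eqtn read 43.4, 49.2 and 74.1 against 23.1, 20.2 and 23.2 CPM (-1.35 ± 0.25, adjusted p = 0.0622). Spaca1 read 89.7, 137 and 161 against 47.7, 50.5 and 69.7 CPM (-1.24 ± 0.23, adjusted p = 0.0716). Neither Eqtn nor Spaca1 passed the threshold, and in both, picked for their low p, the genotypes did not overlap.

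By role, the differences from NONO were as follows in undifferentiated spermatogonia. All 12 content genes lay below 0, from -1.65 (Spam1) to -0.38 (Crisp2), and 11 of them were lower at an unadjusted p under 0.05. The 4 lysozyme-like genes ran from -1.66 (Lyzl1) to -0.78 (Spaca3), all at an unadjusted p under 0.05. Of the membrane and fusion genes 6 were tested, all below 0, 5 at that p. Of the 8 formation genes 7 lay below 0 and 4 reached that p: Fam209, Spaca1, Dpy19l2 and Spata16. Gopc and Pick1 stood in this class at 636% and 62.5% of their step 4-5 level and read 64.8 ± 4.34 against 65.0 ± 1.45 CPM and 64.2 ± 11.8 against 62.8 ± 4.93 CPM. Sppl2c, Actrt3 and Actl9, the genes that came on in steps 5-6, had log2 fold changes of 0.44, 0.37 and 0.17 (adjusted p of 0.676 and above).

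In all, 33 of the 35 genes passed the filter on low counts in this class. Their median was -0.97 beside 0.01 over all genes, with 25 lower and 0 higher at an unadjusted p under 0.05; over all genes in the class 1791 of 11064 reached it. The 2 untested genes were Spaca6 (7.11 ± 4.65 against 3.43 ± 0.159 CPM) and Actl7b, with no UMI there. The filter asks for a minimum level in 3 libraries, so a gene higher in NONO could enter through the NONO libraries alone. Lyzl6 (21, 16 and 14 UMI against 10, 10 and 10) and Spink2 (15, 11 and 16 against 13, 2 and 8) entered so. The median and the counts by role include such genes and are descriptions. With no filter on low counts, 31 of 34 genes lay below 0, with a median of -0.94. Of a further list of 39 measured genes of the acrosome and of sperm-egg fusion, such as Tmem95, Clgn and Plcz1, 35 were tested in the class: 27 lay below 0, 9 were lower and 1 higher at an unadjusted p under 0.05, 0 were called by edgeR, and the median was -0.29.

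The call depended on the libraries and on the tool. Among the listed genes 17 passed without TA (5.15% of all genes) and 12 without TF (5.51%), and 0 without TB, TC, TD or TE (0%). With DESeq2 it was 11 (2.19%). Fam209 itself had a log2 fold change from -1.62 to -1.13 in the 12 alternatives that tested it, and passed in 6. On simulated data for this class, edgeR also called 15 genes that had no change.

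**Figure D5:**
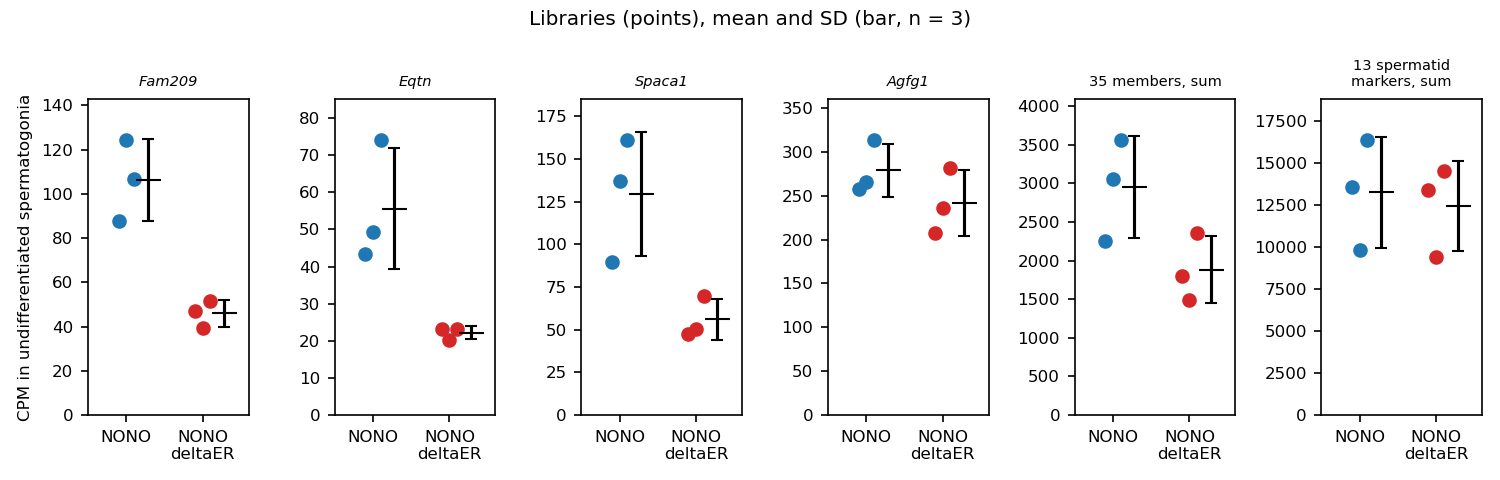
CPM in undifferentiated spermatogonia (y axis, linear, each panel from 0) of Fam209, Eqtn, Spaca1 and Agfg1, the sum of the 35 listed genes and the sum of 13 spermatid markers, by genotype (x axis), 1 point per library with the mean and SD beside it (n = 3). The genotypes do not overlap for the first 3 genes and overlap for Agfg1 and for both sums.

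Spermatid markers were present in these spermatogonia and are given beside the result. Summed over 13 measured markers such as Prm1, Prm2 and Tnp2, which package sperm chromatin, they stood at 13590, 9806 and 16370 CPM in NONO and 13390, 9430 and 14560 CPM in NONO deltaER, so the genotypes overlapped. The listed genes summed to 2255, 3050 and 3559 CPM and to 1801, 1495 and 2351 CPM, and TA lay below TF. None of the 13 markers was at 0: each stood at 19.1% or more of its step 4-5 level. Steps 4-5 come before the peak of the marker sum, with a NONO mean of 14520 CPM there and 200900 CPM in steps 7-8. These shares are therefore not on the same footing as those of the listed genes. The 5% of cells with the most UMI of the listed genes held 49.0% to 57.4% of the UMI of the listed genes in each library.

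The Fam209 UMI, 466 in all, lay in 118 of 1503 cells. Those cells had a median of 8838 UMI, 54.5 UMI of the other listed genes and 71 UMI of spermatid markers. The other 1385 cells had medians of 3148, 2 and 2. By library, Fam209 was seen in 26 of 281, 25 of 214 and 18 of 165 cells in NONO (9.25%, 11.7% and 10.9%) and in 17 of 251, 12 of 260 and 20 of 332 in NONO deltaER (6.77%, 4.62% and 6.02%). Thinned to 1000 UMI per cell in 1 random draw, the shares were 4.63%, 6.49% and 1.504% against 2.17%, 1.28% and 1.99%, and the genotypes overlapped. These shares rest on 12, 12 and 2 against 5, 3 and 6 cells, and the overlap on the 2 cells of TC. Cells with fewer than 1000 UMI were left out of the thinning, 20 to 32 spermatogonia and 32 to 131 Sertoli cells per library. In Sertoli cells, somatic cells that should lack the transcript, the shares were 17.1%, 14.9% and 12.9% against 9.23%, 5.17% and 13.5%, or 7.66%, 9.48% and 9.13% against 6.23%, 3.05% and 10.8% after thinning. Median depth was 2675 to 4408 UMI per cell in the spermatogonia and 1217 to 2952 in the Sertoli cells. In each of the 6 libraries the share in spermatogonia was below that in Sertoli cells, thinned or not, so no expression of Fam209 in spermatogonia is read from it. The source of these UMI was not tested.

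The class was then split by its spermatid marker UMI, a selection added after seeing the data. With at most 5 such UMI there were 1049 cells (median depth 2996 UMI) and with more there were 454 (4242 UMI), which made up 30.2%, 36.4% and 44.8% of the class in NONO and 29.9%, 21.9% and 25.6% in NONO deltaER. The 454 cells held 460 of the 466 Fam209 UMI. In them Fam209 read 207, 248 and 184 CPM in NONO and 111, 123 and 120 CPM in NONO deltaER, with no overlap. The listed genes summed there to 4712, 5631 and 5784 CPM against 3786, 3643 and 5011 CPM, beside markers at 31650, 19160 and 27940 CPM against 32630, 29250 and 34560 CPM.

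In the 1049 cells with few spermatid marker UMI the genotypes overlapped in the sum of the listed genes. The selection left 1803 UMI of the listed genes there, beside 13266 in the other 454 cells. It thus could not show a difference in genes read mainly in spermatids, and the overlap is not read as an absence of one. Much of the sum came from Agfg1, a gene also on outside the spermatids. Fam209 had 0, 0 and 0 UMI there in NONO and 3, 1 and 2 in NONO deltaER, too few to pass the filter on low counts. The listed genes summed to 452, 462 and 498 CPM against 455, 510 and 465 CPM. Agfg1, for an adaptor of vesicle transport, read 205 ± 29.7 against 196.5 ± 16.4 CPM. There 6 genes passed the filter (Agfg1, Dpy19l2, Gopc, Zpbp, Pick1 and Crisp2), with a median log2 fold change of -0.03. By edgeR 0 of them were called and 0 had an unadjusted p under 0.05 (0.12% of all genes were called); DESeq2 was not run on this selection.

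Somatic cells also held UMI of the listed genes. In Sertoli cells they stood at a median of 21.0% of their step 4-5 level and in Leydig cells at 23.8%, beside 2.58% in preleptotene spermatocytes. Between the genotypes, 29 of 34 tested genes lay below 0 in Sertoli cells (median -0.41), 7 lower and 1 higher at an unadjusted p under 0.05, which 436 of all 9026 genes reached. The Sertoli median was -0.71 without TF, -0.23 without TE and -0.24 without the 5% of cells with the most UMI. In myoid cells 15 of 17 lay below 0 (median -0.62). Fam209 read 121, 174 and 110 CPM in NONO and 84.4, 35.2 and 107 CPM in NONO deltaER in Sertoli cells (-0.82 ± 0.27, adjusted p = 0.960), with no overlap. In both classes edgeR and DESeq2 called 0 (0% of all genes by edgeR). The 13 markers summed to 49660 ± 9900 against 48370 ± 8993 CPM in Sertoli cells and 26360 ± 2230 against 18330 ± 4644 CPM in myoid cells (SD, n = 3 each). The part of these markers in the differences was not tested.

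The other 8 classes had no call among the listed genes by either tool. Leptotene to early pachytene spermatocytes had 25 tested genes and a median log2 fold change of -0.02, the class named steps 1-2 had 25 and 0.00209, steps 7-8 had 16 and -0.02, and Leydig cells had 32 and 0.03. The class named Differentiated SG, preleptotene spermatocytes, macrophages and the class named Unknown tested 5, 7, 2 and 12 of the genes. In preleptotene spermatocytes 0.327% of all genes were called (0.155% lower, 0.172% higher), and in the other 7 classes 0%. At an unadjusted p under 0.05 there were 1 gene in preleptotene and 2 in leptotene to early pachytene spermatocytes, 2 in Leydig cells and 1 in the class named Unknown, and 0 in the other 4.

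Whether the response in undifferentiated spermatogonia differed from that in other classes was tested by limma on the ratio of the levels in 2 classes within each library. Against steps 4-5, Fam209 had a difference of log2 fold changes of -1.24 ± 0.25 and Eqtn of -1.23 ± 0.24, both with an adjusted p of 0.243. Of 33 genes 29 lay below 0 and 22 had an unadjusted p under 0.05, and 0 were called (0% of 9924 genes, of which 1424 had an unadjusted p under 0.05). Against Sertoli cells 3 of 33 genes had an unadjusted p under 0.05 and 0 were called (0% of 8254). Against leptotene to early pachytene spermatocytes it was 11 of 25, with 0 called (0% of 9538). A response particular to undifferentiated spermatogonia was thus not shown.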

How the data were processed

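The submitters' processing notes name Cell Ranger 2.1.1 and mm10. No source at hand gives the annotation version or later steps. The deposited values are raw UMI counts, not normalized. The deposited cell table gives each cell's library, group, broad and fine class and mitochondrial percent; that percent is the authors' own and was used to part libraries into 2 sets. Library letters are not tied to the labels' sample numbers.

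Because cells are not replicates, UMI counts were added up within each library and fine class. The genotypes were compared in each of the 17 classes and over all cells, with all 6 libraries in each fit, by edgeR 4.0.16 (R 4.3.3; TMM, filterByExpr, robust quasi-likelihood test, Benjamini-Hochberg over all genes of a class, threshold 0.05). Mean positions over classes, for genes with at least 20 CPM in a spermatid class, and differences of response were tested by limma 3.58.1. DESeq2 1.42.0 was an alternative. The fits were tested on simulated data. In steps 4-5 edgeR recovered 38.5% of 1.5-fold and 78.8% of 2-fold changes, and in undifferentiated spermatogonia 19.7% and 62.5%. Of 2-fold changes it recovered 7.81% in Leydig cells, 1.85% in myoid cells and 6.56% in the class named Unknown. A count of 0 called therefore does not show that levels were unchanged. Genes simulated without a change were called too, 7 in steps 4-5 and 15 in undifferentiated spermatogonia. In the latter class 13, 40 and 61 genes with 1.5-, 2- and 4-fold changes were recovered. False calls there thus exceeded what the threshold of 0.05 aims at. The Fam209 call in that class lay close to the threshold and is read with that caution. Python 3.11.15 (numpy 2.4.6, pandas 2.3.3) gave the levels.

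Members, roles and lists were chosen with earlier results of these data known. Genes named with values in each library are those past the threshold, the 3 with the lowest p over all cells and in 6 classes, and the earliest and latest peak; others shown by level were chosen after their values were seen, as examples of their role. Of the second list, 39 of 41 genes were measured, and of the spermatid markers 13 of 15. No doublet caller was run; 1 alternative left out the 5% of cells with the most UMI per library and class. Genes were placed by symbol with GENCODE M21, and promoter sequences are RefSeq's for GRCm38.p6.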

Additional observations from a re-analysis of the deposited data

How the results depend on the processing

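No paired analysis was possible because the library letters carry no replicate numbers. The number of listed genes past the threshold in undifferentiated spermatogonia, 1 as reported, was 11 with DESeq2, 20 with no filter on low counts, 3 with equal cell numbers per class and 8 without the 5% of cells with the most UMI. It was 0 with the mitochondrial library set as a covariate and 0 with cells of at least 1000 UMI. With at most 5 spermatid marker UMI, chosen after seeing the data, it was also 0, of 6 listed genes tested. The cause was not tested. Over all genes these fits called 2.19%, 3.75%, 0.767%, 1.81%, 0%, 0% and 0.12%. Leaving out 1 library gave 0 to 17 genes: 17 without TA, 12 without TF and 0 without TB, TC, TD or TE. Fam209 stayed below 0 in the 12 alternatives that tested it, with adjusted p from 6.58e-08 to 0.366.

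In the other 16 classes the number was 0 throughout but for leaving out 1 library, which gave 0 to 1: without TA Crisp2 passed in preleptotene spermatocytes (-0.59, adjusted p = 0.0231), and without TF Spam1 passed in Sertoli cells (-1.75, adjusted p = 0.0456). The share of all genes called in those fits is not given here, so these calls are not read as particular to the listed genes. Over all cells and for the mean position the number of listed genes past the threshold was 0 in every alternative run. No named gene changed direction. Depth limits the classes with few cells: 2 genes of the list were tested in macrophages and 5 in the class named Differentiated SG.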

Other observations

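The 454 undifferentiated spermatogonia with more than 5 spermatid marker UMI carried the listed genes at 4720 CPM and the spermatid markers at 29790 CPM, beside 472 and 366 CPM in the other 1049 cells. The letters TGATGTCA stood in the promoters of 10.2% of measured genes that were highest in steps 7-8, 8.43% of those highest in elongated spermatids, 7.14% in steps 6-7 and 5.73% in step 3, beside 8.55% in steps 4-5 and 8.68% in steps 5-6. In the class named steps 1-2 it was 2.35%. Of the classes outside the spermatids, myoid cells had 5.03% and macrophages 3.56%, and the other 8 ran from 1.26% (the class named Differentiated SG) to 2.59% (the class named Unknown). These shares are over genes with at least 20 CPM in a class and a RefSeq promoter, and the letters were chosen after they had been seen in promoters of this list.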
